A study of Mus musculus with 6 samples.

Results

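Glycolysis and the hypoxia response were examined through 40 genes: the glucose transporters, the enzymes from hexokinase to pyruvate kinase, the genes of lactate and pyruvate handling, the hypoxia-inducible factor (HIF) subunits with their hydroxylases, and genes known to be induced by low oxygen. The members were chosen by symbol, with no measured value in the rule, and all 40 were found among the 45777 genes of the deposited matrix. All 40 passed the filter on low counts, which left 17210 genes for testing. The series held 6 RNA-seq libraries of tumors grown from B16F10, an established mouse melanoma line: 3 from tumors implanted in the footpad, which bears the animal's weight, and 3 from tumors implanted in the flank skin. In the labels every host, at both sites, was a Foxn1-/- mouse aged 8 weeks; such mice lack a thymus and therefore most T cells. The study's methods describe C57BL/6J mice, which have T cells, as hosts of B16F10 grafts, younger at injection than the age in the labels. They also describe Foxn1-null mice as hosts of B16F10 cells. No host is named for the sequenced tumors, so the immune status given here rests on the labels. The comparison asked how gene expression differed between a weight-bearing and a non-weight-bearing site. Both groups came from the same cell line, so by the labels host genotype, age and cell line did not separate them, and the libraries were made from total RNA with a kit that keeps the strand. Weight bearing is, by the study's own account, not the only factor that differs between the sites. In hosts with T cells, the study reports limited tumor growth in the footpad, unlike the flank, and proposes limited space as a possible reason. Tumor size was not a term in the fits, and its part in the results on the members was not tested. The study describes tumor cells isolated from the implantation sites without naming a separation step, and shows each library as an individual tumor. The study describes implanting both sites of the same mice at once, but which footpad and flank tumors shared a mouse is not given in the sources used here. The tumors were therefore compared as unpaired groups, and p-values measure the spread between these 6 tumors only.

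Glycolysis splits glucose to pyruvate in the cytosol, and lactate dehydrogenase turns pyruvate to lactate so that the pathway can go on when oxygen is short or when cells divide fast. In low oxygen the prolyl hydroxylases slow down, the HIF alpha subunits escape degradation and, together with ARNT, switch on genes for glucose uptake, glycolysis, pH control, mitophagy and vessel growth. HIF alpha is controlled mainly at the protein level, so messenger RNA levels show the transcriptional side of the response and not HIF activity itself. Solid melanomas are known for high glycolytic rates and for poorly perfused zones.

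Between 46529649 and 66364366 reads were counted per library, and 21060 to 22607 genes had at least 1 read. Levels are given as CPM, read counts relative to the library size after scaling by the trimmed mean of M values, and 3 reads corresponded to 0.0438 to 0.0673 CPM. Melanocyte and melanoma markers were present in every tumor: the summed level of 7 markers was 9802 to 17943 CPM in the footpad and 14350 to 24942 CPM in the flank, and 6 of 7 were fitted lower in the footpad. Fibroblast markers stood out in the other direction, with a summed level of 2761 to 3766 CPM in the footpad against 95.9 to 432 CPM in the flank, and 8 of 9 passed the test. Endothelial markers summed to 136 to 220 CPM against 75.1 to 99.3 CPM. Macrophage markers summed to 93.6 to 122 CPM in the footpad and to 24.1 CPM or more in the flank, where the highest tumor reached the footpad range, and adipocyte markers to 13.8 to 25.9 CPM against 28.2 to 41.4 CPM. Single libraries stood apart in other lists. Footpad replicate 2 held 538 CPM of skeletal muscle markers and 434 CPM of keratinocyte markers, against at most 68.5 and 22.5 CPM in the other tumors. Erythroid markers, in the order of replicates 1, 2 and 3, reached 36260, 3952 and 17773 CPM at the footpad, compared with 30913, 3547 and 1925 CPM at the flank. Neutrophil markers reached 341, 6.61 and 167 CPM in the footpad and at most 28.8 CPM in the flank. In bulk tumors, fewer cells of a type and less RNA per cell cannot be told apart, and the part that cell mixture played in the results on the members was not tested.

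The members took a sizeable share of each library. In replicate order, together they received 2.43%, 2.82% and 2.32% of all reads from the footpad libraries, compared with 3.79%, 2.72% and 3.21% from the flank libraries. The flank values spanned a wider range than the footpad values, and flank replicate 2 lay inside the footpad range. On the FPKM scale, which corrects for gene length and library size, the most abundant members, as the mean over the 6 tumors, were Aldoa at 1871 FPKM, Eno1 at 1602 FPKM, Pgk1 at 1576 FPKM, Tpi1 at 1463 FPKM, Pkm at 1327 FPKM, Ldha at 1313 FPKM and Gapdh at 1122 FPKM. At the other end stood Car12 at 1.71 FPKM, Pfkfb4 at 1.87 FPKM and Epas1 at 1.89 FPKM. The most abundant members were thus enzymes of glycolysis and of lactate production. Other enzymes of the main trunk lay far below them, such as Hk1 at 96.8 FPKM and Pfkm at 17.0 FPKM. These were near or below the regulator Hif1a, at 84.6 FPKM.

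Of the 40 members, 32 were fitted lower and 8 higher in footpad tumors, and their median log2 fold change was -0.26. Among all 17210 genes 50.3% were fitted lower and the median log2 fold change was -0.004. Few members passed the test: 1 fell (Aldoc) and 0 rose at an adjusted p under 0.05 (edgeR quasi-likelihood test, Benjamini-Hochberg over all genes tested), against a background of 1.44% of all genes lower and 3.43% higher. At an unadjusted p under 0.05, 8 members were lower and 2 higher, against 10.5% and 14.8% of all genes. DESeq2, which passed more genes on these counts, called 8 members lower (Aldoc, Pfkl, Ldhb, Pdk1, Hif1a, Bnip3, Car12 and Ddit4) and 1 higher (Slc2a3), against 6.07% and 9.79% of all genes. The groups did not overlap, with every footpad tumor below every flank tumor, for 8 members (Pfkl, Aldoc, Pdk1, Hif1a, Egln1, Bnip3, Car12 and Ddit4). They did not overlap in the other direction for 2 members (Slc2a3 and Hk1). The same held for 14.9% and 17.5% of all genes.

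**Figure D1:**
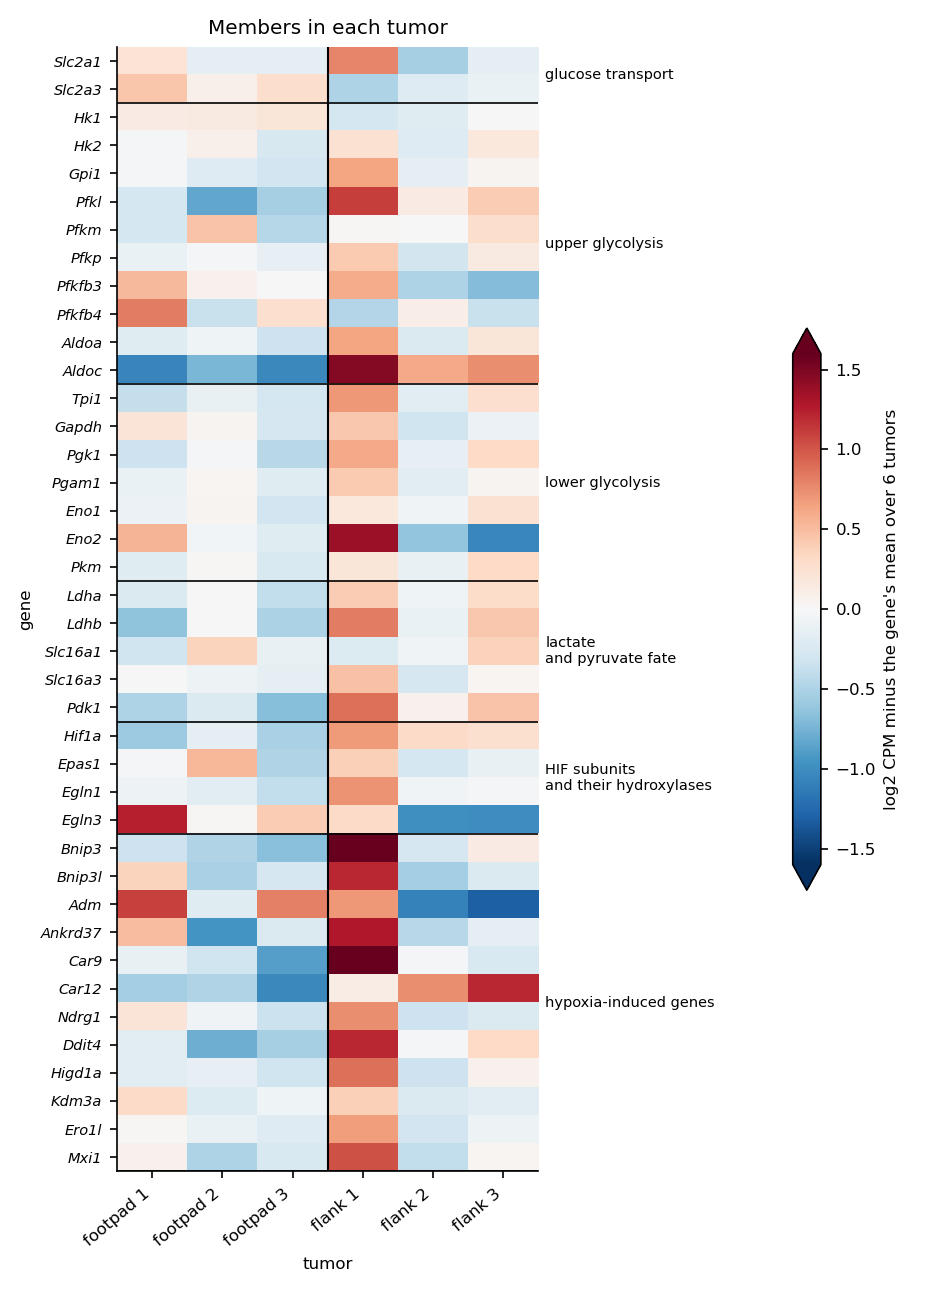
Level of the 40 members in each of the 6 tumors, shown as log2 CPM minus the gene's mean over the tumors (color scale in log2 units; red, above the mean; blue, below), grouped by role. The column of flank replicate 1 is red for most members and is the highest tumor for 29 of 40, and the rows of Aldoc, Pfkl, Pdk1 and Hif1a are blue in all 3 footpad tumors.

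The size of the lower median depended on single libraries. Flank replicate 1 was the highest of the 6 tumors for 29 of the 40 members (72.5%), whereas it was the highest for 23.9% of all genes tested. Its median deviation from the members' means was 0.63 on the log2 scale, against 0.04 in flank replicate 3 and -0.20 in flank replicate 2. Footpad replicate 3 had the lowest median, -0.28, and was the lowest tumor for 16 members. In 12 members (30%) flank replicate 1 exceeded the mean of the other flank tumors at least 2-fold, against 6.62% of all genes tested. Of these 12 members, 8 were hypoxia-induced genes. Without flank replicate 1, 24 members were fitted lower and 16 higher, and the median log2 fold change was -0.08. Over all genes the median moved only to 0.03. Leaving out flank replicate 2 instead moved the members' median the other way, to -0.47, with 0.007 over all genes. In that case 21 members were lower without overlap (52.5%) and 3 higher (7.5%), against 20.8% and 22.5% of all genes. Flank replicate 1 also had the highest summed melanoma markers (24942 CPM), the lowest fibroblast (95.9 CPM) and macrophage (24.1 CPM) markers, and the highest erythroid markers of the flank tumors (30913 CPM), and the part of these in its member levels was not tested.

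HIF binds DNA at a short core, ACGTG or GCGTG, and the 250 bases upstream of annotated starts were searched for it on both strands. The upstream bases of Aldoc, Pdk1, Bnip3, Car9 and Egln3 are shown because Aldoc alone passed the test, Pdk1, Bnip3 and Car9 are well-known HIF targets that were highest in flank replicate 1, and Egln3 was fitted in the opposite direction. Capitals mark the core; on the printed strand it reads ACGTG or GCGTG, or CACGT or CACGC where it lies on the other strand, and CACGTG (an E-box) holds it on both. The sequences are from RefSeq on GRCm38.p6, written 5' to 3' along the gene and ending at the last base before the start: Aldoc at chr11:78322823-78323072 on the plus strand, Pdk1 at chr2:71872974-71873223 on the plus strand, Bnip3 at chr7:138909507-138909756 on the minus strand, Car9 at chr4:43506776-43507025 on the plus strand, Egln3 at chr12:54203875-54204124 on the minus strand.
Aldoc: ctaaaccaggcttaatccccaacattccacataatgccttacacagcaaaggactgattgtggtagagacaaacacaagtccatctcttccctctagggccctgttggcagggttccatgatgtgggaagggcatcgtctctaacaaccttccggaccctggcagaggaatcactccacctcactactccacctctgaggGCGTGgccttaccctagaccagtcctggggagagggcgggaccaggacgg
Pdk1: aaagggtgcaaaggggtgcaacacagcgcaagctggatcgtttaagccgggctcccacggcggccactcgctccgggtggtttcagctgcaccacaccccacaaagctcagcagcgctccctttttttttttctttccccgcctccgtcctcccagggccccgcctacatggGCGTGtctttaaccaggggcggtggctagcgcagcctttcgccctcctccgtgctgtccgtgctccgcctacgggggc
Bnip3: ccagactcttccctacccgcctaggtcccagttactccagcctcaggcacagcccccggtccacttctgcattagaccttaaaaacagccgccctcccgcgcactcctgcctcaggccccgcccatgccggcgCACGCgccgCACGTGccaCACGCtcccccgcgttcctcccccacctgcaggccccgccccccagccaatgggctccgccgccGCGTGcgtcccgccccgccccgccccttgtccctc
Car9: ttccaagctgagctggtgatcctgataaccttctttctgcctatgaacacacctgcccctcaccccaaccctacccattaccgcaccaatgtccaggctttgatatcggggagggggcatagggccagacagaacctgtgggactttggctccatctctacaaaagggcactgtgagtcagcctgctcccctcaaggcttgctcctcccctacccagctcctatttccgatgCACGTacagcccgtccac
Egln3: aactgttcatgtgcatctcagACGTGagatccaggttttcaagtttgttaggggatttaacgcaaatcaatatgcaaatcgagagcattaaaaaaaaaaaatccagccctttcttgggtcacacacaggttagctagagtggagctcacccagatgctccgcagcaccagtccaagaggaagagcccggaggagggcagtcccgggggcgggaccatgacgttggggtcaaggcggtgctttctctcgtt

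Among the members, 36 had 53 annotated windows and 4 (Slc2a3, Epas1, Bnip3l and Ndrg1) had none in the table. A core lay in 41 of the 53 windows (77.4%), against 38.6% of all 32851 windows of the table, and at least 2 cores in 43.4% against 16.7%. The overlapping E-box CACGTG was found in 11.3% of the members' windows and in 6.02% of all. Windows of the same gene can overlap, as some of Aldoa, Eno1 and Pfkm did, so the same core can be counted more than once. In the sequences above, Bnip3 held 5 cores between 35 and 117 bases upstream, including those in the E-box, while Car9 held 1 at 18 bases, Aldoc 1 at 50 bases, Pdk1 1 at 78 bases and Egln3 1 at 229 bases. For Aldoc and Pdk1, which had 2 windows each, the more upstream window is shown; the other window held 1 core for Aldoc and 0 for Pdk1. Windows of genes with high and low values in the footpad thus both held the core, and Car12 held none in its window. Base composition was not matched, hypoxia-induced genes were listed because they are known to respond to HIF, and a match of these letters is a description of the window and not a binding site.

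The values of a gene are listed in the order of replicates 1, 2 and 3 of each site. The glucose transporters did not move together. Slc2a3 (chr6:122727809-122802363, GRCm38.p6), which encodes the high-affinity transporter GLUT3, measured 53.8, 41.7 and 47.8 CPM across the footpad replicates and 27.9, 34.4 and 36.7 CPM across those of the flank. Every footpad tumor was above every flank tumor, and here flank replicate 1 was the lowest of the 6. The fitted log2 fold change was 0.53 ± 0.16 (SE), with an adjusted p of 0.093 in edgeR and 0.033 in DESeq2. Slc2a1, which encodes the widely expressed transporter GLUT1, averaged 153 ± 23.5 CPM (SD, n = 3) in the footpad and 171 ± 84.4 CPM in the flank. Its flank values were as far apart as 107 and 267 CPM, its log2 fold change was -0.16 ± 0.32, and without flank replicate 1 the value was 0.31.

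Among the 10 genes of upper glycolysis, Aldoc fell. Aldoc (chr11:78323073-78327781), the aldolase isozyme best known from brain, stood at 27.6, 34.5 and 28.1 CPM in the replicates from the footpad, against 159, 87.3 and 96.2 CPM in those from the flank. The groups were far apart: the highest footpad value was well below the lowest flank value. Mean levels were 30.1 ± 3.82 and 114 ± 39.2 CPM (SD, n = 3), the log2 fold change was -1.93 ± 0.25 and the adjusted p was 0.014 in edgeR, a 3.80-fold lower level in the footpad. Without flank replicate 1 the log2 fold change was -1.61 with an adjusted p of 0.017. The edgeR call was lost without footpad replicate 1, footpad replicate 3 or flank replicate 3, with adjusted p of 0.072, 0.085 and 0.057 and log2 fold changes of -1.87, -1.88 and -2.04. In the same order, these fits called 26, 0 and 36 of all genes higher and 5, 0 and 10 lower. The fit of all tumors called 590 higher and 248 lower.

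The liver-type phosphofructokinase behaved in a similar way without passing the test. Pfkl (chr10:77986947-78009807), a subunit of the enzyme that commits sugar to glycolysis, gave 278, 190 and 234 CPM at the footpad and 731, 372 and 448 CPM at the flank. All footpad values lay below all flank values, with flank replicate 1 far above the other tumors. Its log2 fold change was -1.14 ± 0.28, the adjusted p was 0.058 in edgeR and 0.00076 in DESeq2, and without flank replicate 1 the log2 fold change was -0.81. Hk1 (chr10:62268855-62379920), the constitutive hexokinase, measured 487, 494 and 510 CPM across the footpad replicates and 365, 390 and 449 CPM across those of the flank. The groups did not overlap, but the difference was small, with a log2 fold change of 0.31 ± 0.14 and an edgeR adjusted p of 0.226.

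The other members of upper glycolysis differed by less than the spread between tumors. Hk2, the inducible hexokinase, averaged 340 and 376 CPM in footpad and flank tumors; Gpi1, which isomerizes glucose phosphate, 1209 and 1583 CPM; and Aldoa, the main aldolase, 2784 and 3760 CPM. Pfkp, the platelet-type phosphofructokinase, averaged 528 and 609 CPM. Pfkm, the muscle-type subunit, averaged 52.1 and 57.5 CPM and was highest, at 73.2 CPM, in footpad replicate 2, the tumor with 538 CPM of muscle markers. Log2 fold changes of these 5 genes lay between -0.43 (Aldoa) and -0.14 (Pfkm), and edgeR adjusted p between 0.319 and 0.748. The kinase-phosphatases that set the level of the phosphofructokinase activator were fitted higher: Pfkfb3 averaged 27.5 and 22.4 CPM with a log2 fold change of 0.30 ± 0.34, and Pfkfb4 8.95 and 6.14 CPM with 0.54 ± 0.33. Neither passed the test, with edgeR adjusted p of 0.621 and 0.350.

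**Figure D2:**
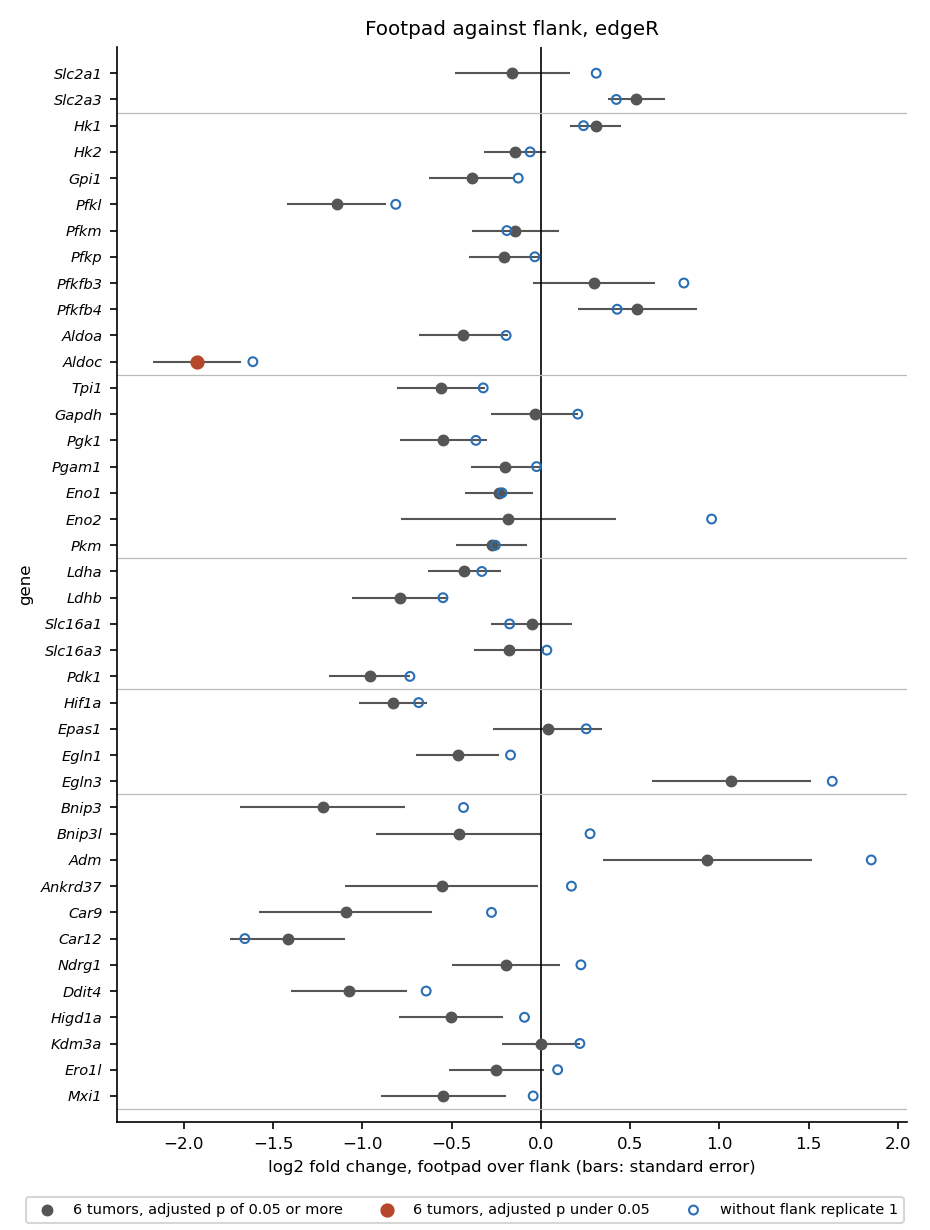
Log2 fold change of footpad over flank for the 40 members (x axis, log2 units; filled points, all 6 tumors, with bars of 1 standard error; open points, without flank replicate 1), in the order of the roles in the map of levels by tumor. Aldoc, in red, is the only member past the adjusted p threshold of 0.05, and 16 open points lie to the right of 0 against 8 filled ones.

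All 7 genes of lower glycolysis were fitted lower, by little, and 0 passed the test: by edgeR 0 of them had an unadjusted p under 0.05, and DESeq2 also called 0. Their median log2 fold change was -0.24, with a range from -0.56 to -0.04. Tpi1 (chr6:124810586-124814158), which interconverts the triose phosphates, stood at 1971, 2346 and 2108 CPM in the replicates from the footpad, against 4132, 2248 and 3094 CPM in those from the flank. Flank replicate 2 lay inside the footpad range and flank replicate 1 far above it. Its log2 fold change was -0.56 ± 0.25 with an edgeR adjusted p of 0.209. Pgk1 (chrX:106187100-106203699), which makes the first ATP of the pathway, gave 2493, 3117 and 2317 CPM at the footpad and 4793, 2863 and 3918 CPM at the flank. The same flank tumor, replicate 2, overlapped with the footpad, and the log2 fold change was -0.55 ± 0.24 with an edgeR adjusted p of 0.213.

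Gapdh, often used as a reference gene, averaged 1819 ± 291 CPM in the footpad and 1864 ± 521 CPM in the flank (SD, n = 3), with a log2 fold change of -0.04 ± 0.24. Eno1, the ubiquitous enolase, averaged 2940 and 3461 CPM; Pgam1, the phosphoglycerate mutase, 728 and 836 CPM; and Pkm, the pyruvate kinase of most tumors, 3435 and 4160 CPM. Their log2 fold changes lay between -0.28 and -0.20. Eno2, the neuronal enolase, was the most variable of the group: its flank values ran from 8.45 to 45.6 CPM, and its log2 fold change of -0.18 ± 0.60 became 0.96 without flank replicate 1. Eno1 shares nearly its whole sequence with Eno1b, and Gapdh, Pgk1, Ldha, Aldoa and Tpi1 have processed copies in the mouse genome, so their counts are uncertain to the extent that shared reads were divided.

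All 5 genes of lactate and pyruvate handling were fitted lower, with a median log2 fold change of -0.43. Pdk1 (chr2:71873215-71903858) encodes the kinase that shuts the pyruvate dehydrogenase complex and so keeps pyruvate out of the mitochondria. It measured 133, 159 and 117 CPM across the footpad replicates and 344, 196 and 256 CPM across those of the flank. No footpad tumor reached the lowest flank tumor. The fitted log2 fold change was -0.96 ± 0.23, with an adjusted p of 0.056 in edgeR and 0.0012 in DESeq2, and it was -0.73 without flank replicate 1.

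Ldhb (chr6:142490249-142507957), the lactate dehydrogenase subunit that favors lactate use, stood at 174, 270 and 191 CPM in the replicates from the footpad, against 478, 252 and 364 CPM in those from the flank. Footpad replicate 2 lay above flank replicate 2, and the log2 fold change was -0.79 ± 0.27 with an adjusted p of 0.125 in edgeR and 0.029 in DESeq2. Ldha (chr7:46842274-46855627), the subunit that favors lactate production, gave 2002, 2348 and 1784 CPM at the footpad and 3130, 2243 and 2884 CPM at the flank. It overlapped in the same way, with a log2 fold change of -0.43 ± 0.21 and an edgeR adjusted p of 0.238. The lactate transporters were close between the sites: Slc16a1, which carries lactate both ways, averaged 172 and 178 CPM, and Slc16a3, the exporter of glycolytic cells, 135 and 153 CPM, with log2 fold changes of -0.05 ± 0.23 and -0.18 ± 0.20.

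**Figure D3:**
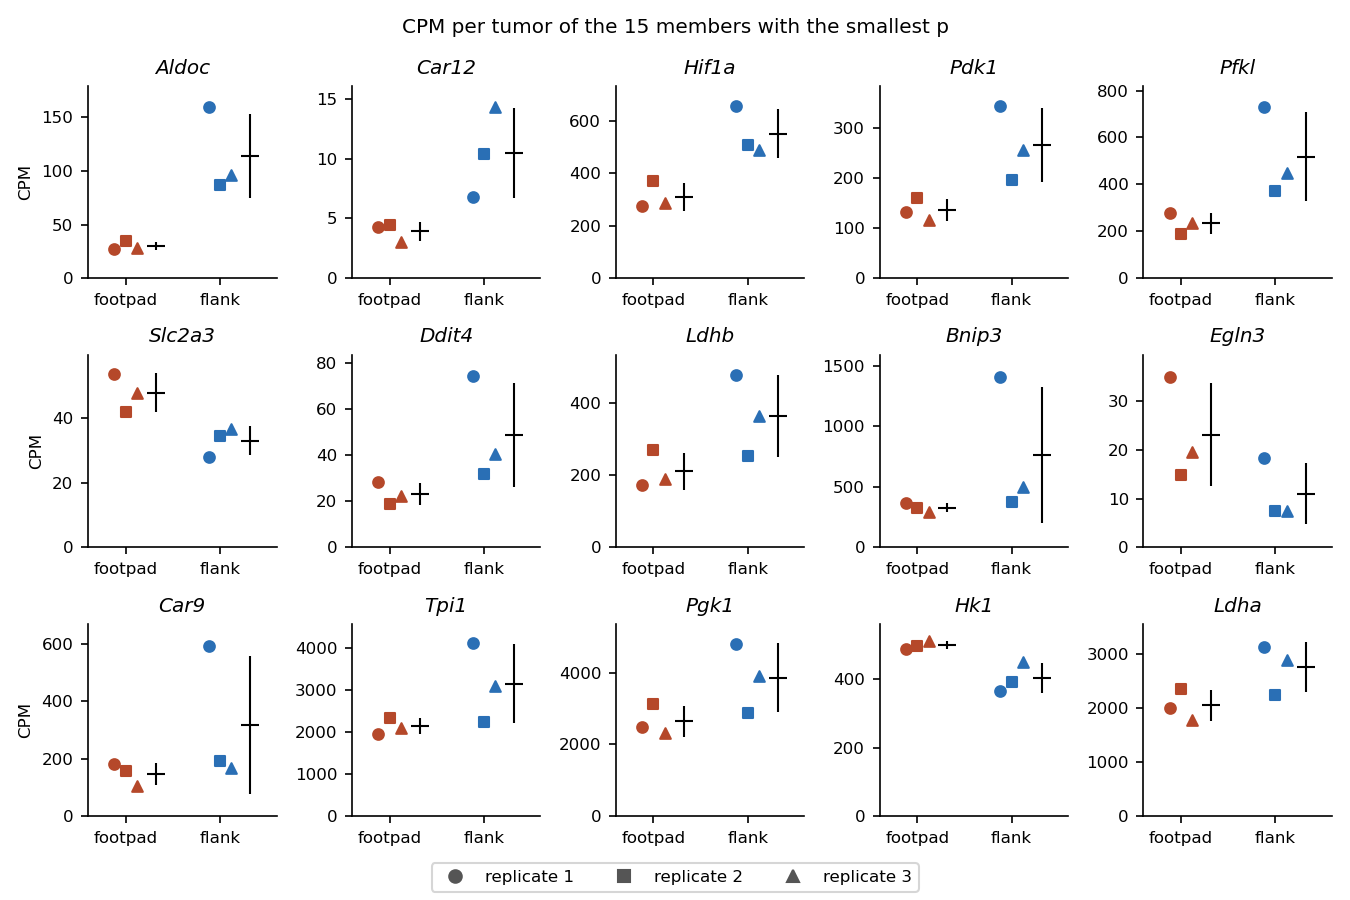
CPM in each tumor (y axis, linear from 0) of the 15 members with the smallest unadjusted p, with a symbol for each replicate number and, at the right of each group, the mean and SD of the 3 tumors. Aldoc, Hif1a, Pdk1 and Pfkl show a gap between the sites, while for Bnip3 and Car9 the flank mean is carried by replicate 1.

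The HIF alpha subunits and their hydroxylases divided into genes with lower and with higher fitted values. Hif1a (chr12:73901324-73947554), the oxygen-regulated subunit of most tissues, measured 274, 369 and 286 CPM across the footpad replicates and 657, 506 and 487 CPM across those of the flank. The groups were separated, and the lowest flank value was well above the highest footpad value. Its log2 fold change was -0.83 ± 0.19, with an adjusted p of 0.052 in edgeR and 0.00057 in DESeq2, and it was -0.69 without flank replicate 1. Epas1, the HIF alpha subunit first known from endothelium, was much less abundant, at 11.2 and 10.9 CPM on average, and its log2 fold change was 0.04 ± 0.30.

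Egln1, the main prolyl hydroxylase that marks HIF alpha for degradation, averaged 126 ± 13.7 CPM in the footpad and 174 ± 56.9 CPM in the flank (SD, n = 3). Its groups did not overlap, by a narrow margin: the highest footpad tumor had 138 CPM and the lowest flank tumor 140 CPM. The log2 fold change of -0.47 ± 0.23 had an edgeR adjusted p of 0.251 and was -0.17 without flank replicate 1. Egln3 (chr12:54178981-54203874), the hydroxylase that is itself a HIF target, stood at 35.0, 14.9 and 19.5 CPM in the replicates from the footpad, against 18.2, 7.46 and 7.41 CPM in those from the flank. It was higher in the footpad in most pairs of tumors, although flank replicate 1 exceeded footpad replicate 2. The fitted log2 fold change was 1.07 ± 0.45 with an edgeR adjusted p of 0.189, and it was 1.63 with an adjusted p of 0.076 without flank replicate 1.

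Of the 12 hypoxia-induced genes, 10 were fitted lower and 2 higher, and their median log2 fold change was -0.52. By edgeR 0 passed the test in either direction, 3 were lower and 0 higher at an unadjusted p under 0.05, and DESeq2 called 3 lower (Bnip3, Car12 and Ddit4) and 0 higher. Flank replicate 1 was the highest tumor for 10 of the 12. Without it, 6 were fitted lower and 6 higher, and their median log2 fold change was 0.03. Their summed level, in replicate order, was 2686, 2269 and 2111 CPM at the footpad, against 5433, 2182 and 2557 CPM at the flank, so that apart from flank replicate 1 the sites covered a similar range.

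Bnip3 (chr7:138890836-138909506), a mitochondrial receptor for mitophagy whose upstream bases held 5 cores, was highest in flank replicate 1 by a wide margin. It gave 365, 328 and 289 CPM at the footpad and 1412, 380 and 502 CPM at the flank. Flank replicate 2 was only just above footpad replicate 1. Its log2 fold change was -1.22 ± 0.46, with an adjusted p of 0.156 in edgeR and 0.026 in DESeq2, and it was -0.43 without flank replicate 1. Its relative Bnip3l averaged 216 ± 70.3 and 297 ± 207 CPM (SD, n = 3), with the highest levels, 295 and 534 CPM, in replicate 1 of each site. Those were also the tumors with the highest erythroid markers, 36260 and 30913 CPM, and the part of red blood cells, in which Bnip3l is abundant, was not tested.

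The carbonic anhydrases, which buffer pH at the cell surface, differed in which flank tumor was high. Car9 (chr4:43507026-43513729) measured 182, 158 and 107 CPM across the footpad replicates and 594, 193 and 167 CPM across those of the flank, so the groups overlapped and a single flank tumor stood far above the rest. Its log2 fold change of -1.09 ± 0.49 (edgeR adjusted p of 0.209) became -0.28 without that tumor. Car12 (chr9:66712296-66766845), a lowly expressed relative, stood at 4.27, 4.45 and 3.04 CPM in the replicates from the footpad, against 6.78, 10.4 and 14.3 CPM in those from the flank. Here flank replicate 1 was the lowest of the flank tumors and the groups did not overlap. The fitted log2 fold change was -1.42 ± 0.32, with an adjusted p of 0.051 in edgeR and 0.00064 in DESeq2. Without flank replicate 1 it was -1.66 with an edgeR adjusted p of 0.042.

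Ddit4 (chr10:59949675-59951770), an inhibitor of mTORC1 induced by hypoxia and other stresses, gave 28.5, 18.8 and 22.5 CPM at the footpad and 74.7, 31.9 and 40.6 CPM at the flank. Every flank tumor was above every footpad tumor. Its log2 fold change was -1.08 ± 0.32, with an adjusted p of 0.094 in edgeR and 0.012 in DESeq2, and it was -0.64 without flank replicate 1. Adm, which encodes the vasodilator adrenomedullin, was fitted in the other direction, at 7.65 ± 3.10 CPM in the footpad and 4.01 ± 3.29 CPM in the flank, with a log2 fold change of 0.93 ± 0.59 (edgeR adjusted p of 0.36) that became 1.85 (adjusted p of 0.075) without flank replicate 1. Ankrd37, Higd1a (a mitochondrial protein), Mxi1 (a repressor that opposes MYC), Ero1l (a thiol oxidase of the endoplasmic reticulum), Ndrg1 and Kdm3a (a histone demethylase) had log2 fold changes between -0.56 and 0.00 and edgeR adjusted p of at least 0.323. Flank replicate 1 was the highest tumor for each of these 6 genes.

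Ratios between related genes were compared because a library in which both genes of a pair are equally high does not move them. Flank replicate 1 was not raised evenly in all pairs. Its log2 Slc2a1/Slc2a3 was 3.90, against 2.31 and 2.58 in flank replicates 2 and 3. Its log2 Bnip3/Bnip3l, at 2.28, was close to their 2.14 and 2.23. For 13 pairs the log2 ratio of the deposited FPKM values was taken within each tumor and the sites were compared by an exact two-sided permutation test, for which 0.1 is the smallest p that 3 against 3 tumors allow. The groups did not overlap for 6 of the 13 ratios. Each of these ratios holds a member whose own levels did not overlap, so they repeat those results in part. No share over other pairs of genes was computed. Among all single genes, 17.5% were higher and 14.9% lower without overlap. Each of the 6 had an exact p of 0.1 and an adjusted p of 0.217 over the 13 ratios, so that none could pass a threshold of 0.05.

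The clearest separation was that of the aldolases: log2 Aldoc/Aldoa was -7.33 ± 0.10 in the footpad and -5.85 ± 0.17 in the flank (SD, n = 3), a difference of -1.49. Aldoc made up 0.618% ± 0.044 of the aldolase FPKM of this pair in the footpad and 1.71% ± 0.19 in the flank, and flank replicate 1, at 1.82%, was close to flank replicate 2, at 1.83%. Relative to Aldoa, the 3 flank tumors were thus close to each other, and all were above the footpad tumors. Egln3 relative to Egln1 was higher in the footpad, with log2 ratios of -2.14 ± 0.57 and -3.68 ± 0.31, a difference of 1.54. Epas1 relative to Hif1a was higher as well, at -4.97 ± 0.42 against -5.93 ± 0.15, a difference of 0.96.

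Among the other separated pairs, log2 Bnip3/Bnip3l was 1.52 ± 0.37 in the footpad and 2.22 ± 0.07 in the flank, and Hk2/Hk1 was -0.96 ± 0.20 and -0.51 ± 0.28. Pfkm/Pfkl was -1.79 ± 0.71 in the footpad and -2.72 ± 0.56 in the flank, with its highest value, -0.97, in footpad replicate 2, the tumor rich in muscle markers. Pfkl supplied 33.6% ± 11.3 of the phosphofructokinase FPKM in the footpad and 44.5% ± 5.96 in the flank, with overlapping tumors. The pairs Slc2a1/Slc2a3, Pfkp/Pfkl, Pfkfb4/Pfkfb3, Eno2/Eno1, Ldhb/Ldha, Slc16a3/Slc16a1 and Car9/Car12 overlapped between the sites, with exact p between 0.2 and 1. Ldha supplied 88.6% ± 1.43 of lactate dehydrogenase FPKM in the footpad and 86.0% ± 1.85 in the flank.

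**Figure D4:**
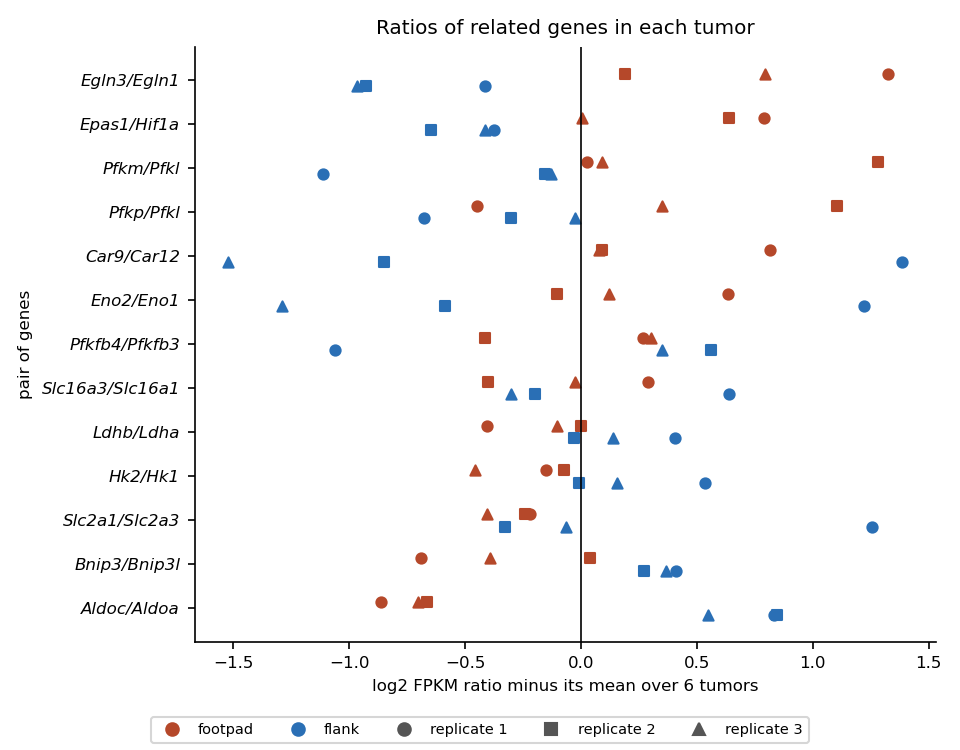
Log2 FPKM ratio of 13 pairs of related genes in each tumor (x axis, log2 units relative to the mean of the 6 tumors; color, site; symbol, replicate number), in order of the difference between the sites. The sites are separated for Egln3/Egln1, Epas1/Hif1a and Pfkm/Pfkl, higher in the footpad, and for Hk2/Hk1, Bnip3/Bnip3l and Aldoc/Aldoa, lower in the footpad.

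Further genes of the same pathways were taken from a list of 81 genes, of which 72 passed the filter on low counts. Of these, 31 were fitted higher and 41 lower, with a median log2 fold change of -0.09, and 3 rose and 2 fell by edgeR (adjusted p under 0.05). At an unadjusted p under 0.05, 14 were higher and 14 lower, and DESeq2 called 13 higher and 6 lower. The groups did not overlap for 15 higher and 11 lower. Over all genes, the shares were 3.43% and 1.44% by edgeR, 14.8% and 10.5% at the unadjusted threshold, 9.79% and 6.07% by DESeq2, and 17.5% and 14.9% without overlap. The call counts of the 25 tested glycolysis isozymes and regulators were 0 higher and 1 lower by edgeR, and those of the 12 tested genes of the HIF machinery were 0 and 0, with 4 higher and 1 lower at an unadjusted p under 0.05 and 3 and 0 called by DESeq2. Of the 35 other hypoxia-induced genes 3 rose and 1 fell by edgeR, and DESeq2 called 9 higher and 3 lower. Of these 35, 14 were fitted higher and 21 lower, with a median log2 fold change of -0.22. Without flank replicate 1, 20 were fitted higher and 15 lower, with a median of 0.25.

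Of the genes that rose, 2 are described here, a secreted growth factor and a signaling GTPase. Pgf, the placental growth factor, measured 161, 72.3 and 107 CPM at the footpad against 35.6, 23.1 and 15.3 CPM at the flank, and its log2 fold change was 2.20 ± 0.38 (edgeR adjusted p of 0.027). Rragd, a GTPase of amino acid signaling to mTORC1, was at 61.3, 81.4 and 63.0 CPM against 24.6, 26.1 and 43.0 CPM, and its log2 fold change was 1.13 ± 0.24 (edgeR adjusted p of 0.043). For both genes the footpad tumors were above all flank tumors. Pgf is also made by stromal cells, and fibroblast markers were higher in the same tumors (2761 to 3766 against 95.9 to 432 CPM); their part in this result was not tested.

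The genes that fell were a transporter and a collagen-modifying enzyme. Slc16a7, a monocarboxylate transporter with high affinity for pyruvate, stood at 1.21, 3.56 and 1.37 CPM in the replicates from the footpad, against 73.4, 16.6 and 28.7 CPM in those from the flank. It had the greatest fold change of the 4 called genes described here, with a log2 value of -4.25 ± 0.68 (edgeR adjusted p of 0.023), and -3.46 without flank replicate 1. Plod2, the lysyl hydroxylase that prepares collagen for cross-linking, was at 130, 129 and 156 CPM against 308, 249 and 261 CPM. Its flank tumors were close to each other, and its log2 fold change was -0.98 ± 0.15 (edgeR adjusted p of 0.021) and -0.89 without flank replicate 1. Each of these 4 calls was lost in at least 1 of the fits that left out a single tumor, with the highest adjusted p of each between 0.090 and 0.136. Among these fits, the one without footpad replicate 3 called 0 of all genes.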

How the data were processed

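Total RNA of 3 footpad and 3 flank tumors was sequenced. In the submitters' processing notes and the study's methods, reads were checked with FastQC (0.11.7), trimmed with Trimmomatic and aligned to mm10 with HISAT2 (2.1.0). The counting program, its use of strand, its handling of multiply mapping reads and the authors' filter are not given in the sources used here. The deposited matrix held read counts per gene and FPKM values made by the authors. The deposited FPKM values were used for levels between genes and for ratios. Counts were fitted with edgeR 4.0.16 (TMM scaling, filterByExpr, quasi-likelihood test of site, no covariate) in R 4.3.3, with Benjamini-Hochberg adjustment over 17210 genes. The SE of a log2 fold change was derived from its F statistic. The common biological coefficient of variation was 0.338. The script was tested on simulated counts. Gene and upstream coordinates were taken from RefSeq on GRCm38.p6 (mm10), where 40 members matched by gene ID. Alternatives were DESeq2 1.42.0, limma 3.58.1 on log2(FPKM + 1) and log2(FPKM + 0.1), other scalings and filters, a fold of 2, the replicate number as a block, and leaving out each tumor. Exact permutation tests were run in scipy 1.17.1. The members and lists were chosen with earlier results of these data known. Values in every tumor were given for members past the threshold and for those next by p, up to 15, and of the further list for called genes, of which 1 is not reported here. No comparison columns of the authors were used.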

Additional observations from a re-analysis of the deposited data

How the results depend on the processing

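Among the 15 members described by tumor, no fold change reversed under 14 alternative fits. These were the members with the smallest p, a choice that favors a stable sign. Some of the remaining members did change sign when single tumors were left out, as Slc2a1 (-0.41 to 0.31) and Eno2 (-0.57 to 0.96) did. Others, such as Gpi1 (-0.55 to -0.13), did not. Calls depended on the test. DESeq2 called 1 member higher and 8 lower, and of the 81 further genes 13 higher and 6 lower, against 9.79% and 6.07% of all genes. A filter of at least 10 counts in every tumor gave 5 members lower and 6 further genes higher, where 2.04% of all genes were lower and 4.82% higher. With limma on log2(FPKM + 0.1), 2 members were lower and 0 higher, where 1.44% of all genes were lower and 4.14% higher. Requiring a fold of 2 left 1 further gene lower, where 150 of the 17210 genes tested were lower. With upper-quartile scaling, 6 members were without overlap lower in the footpad and 2 higher, against 8 and 2 with the main scaling. With the replicate number as a block, 0 members and 0 further genes were called in either direction, and 0 of all genes, with Aldoc at a log2 fold change of -1.88 and an edgeR adjusted p of 0.069. The numbers share no stated origin. Deviations of same-numbered tumors from their site means had correlations of 0.05, -0.10 and -0.11, and those of differently numbered pairs ran from -0.20 to 0.26. With 3 tumors per site, these values cannot decide which tumors shared a mouse. When single tumors were left out, members called higher stayed at 0 to 0 and lower ranged from 0 to 2. The median log2 fold change of the members ranged from -0.47 to -0.08, that of the further genes from -0.16 to 0.03, and further genes called ranged from 0 to 5 higher and 0 to 3 lower. The same fits called 0% to 4.04% of all genes higher and 0% to 1.55% lower, with 0 of all genes called without footpad replicate 3. Members without overlap ranged from 2 to 7 higher and from 8 to 21 lower (5% to 17.5% and 20% to 52.5%), against 20.3% to 25.1% and 17.8% to 22.6% of all genes. The 7 higher and 8 lower without flank replicate 1 (17.5% and 20%) compared with 23.4% and 22.3% of all genes. Of the 13 differences of log2 ratios, 3 changed sign. Pfkfb4/Pfkfb3 (0.10) ranged from -0.40 to 0.41 over these fits, with -0.006 when footpad replicate 1, -0.02 when footpad replicate 3 and -0.40 when flank replicate 1 was left out. Eno2/Eno1 (0.44) ranged from -0.10, when flank replicate 3 was left out, to 1.16. Slc16a3/Slc16a1 (-0.09) ranged from -0.27 to 0.20, with 0.09 when footpad replicate 2 and 0.20 when flank replicate 1 was left out. Fewer tumors also widen the error, and other causes were not tested.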
